A study of Mus musculus with 12 samples.

Results

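The laminin, nidogen and perlecan genes of the basement membrane were examined in RNA sequencing of mouse thyroid. The 10 genes were *Lama1*, *Lama3*, *Lama4* and *Lama5* (laminin alpha chains), *Lamb1* and *Lamb2* (beta chains), *Lamc1* (gamma chain), *Nid1* and *Nid2* (nidogens) and *Hspg2* (perlecan). They were taken by gene symbol from the deposited tables of 55536 genes, where each matched 1 row. All 10 passed the filter on low counts. The study compared 5 affected mice, labelled with a thyroid dysplasia phenotype, with 7 unaffected mice, labelled with a wild type phenotype, and sequenced 1 library from the thyroid of each. According to the methods, the affected mice were C57BL/6 from Taconic (B6NTac), 6 unaffected mice were C57BL/6 from Charles River (B6NCrl), and 1 unaffected mouse (number 14) was a KO animal from Taconic whose targeted gene is not named. The study linked the dysplasia to a LINE-1 retrotransposon in an intron of *Tg*, the thyroglobulin gene. In all 5 affected mice it reported that most *Tg* reads at that intron skipped the exon that follows, unlike in unaffected mice. The labels give no LINE-1 genotype, sex, age or batch for these mice. Colony and phenotype split the mice in the same way except for mouse 14, so the phenotype and the colony cannot be told apart in the other 11 mice. The mice are separate animals, so the spread within a group includes differences between animals.

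The basement membrane is a thin sheet of extracellular matrix on which epithelium, endothelium, muscle, fat and Schwann cells rest. Laminins are trimers of an alpha, a beta and a gamma chain that polymerise into its first network. Nidogens bridge this network to the type IV collagen network, and perlecan is a large heparan sulfate proteoglycan that is bound to both. In the thyroid, each follicle is wrapped by a basement membrane, and so are the capillaries around it. Most laminins of epithelium and vessels join an alpha chain with beta 1 or beta 2 and with gamma 1, while laminin-332 is an epithelial form with an alpha 3 chain that is bound by hemidesmosomes.

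*Lamb1* and *Lamb2*, the beta chains whose ratio is given below, differ in the composition of the stretch read before the first annotated base of each gene. Promoter windows from RefSeq (GRCm38.p6) were found for 5 of the 10 genes, and the windows of this pair are shown 5′ to 3′ up to the base before the first annotated base of the gene. Capitals mark the GC box (GGGCGG) and the CCAAT box (CCAAT), on either strand. The *Lamb1* window is chr12:31265043-31265233 on the plus strand, and the *Lamb2* window is chr9:108479612-108479735 on the plus strand.
Lamb1: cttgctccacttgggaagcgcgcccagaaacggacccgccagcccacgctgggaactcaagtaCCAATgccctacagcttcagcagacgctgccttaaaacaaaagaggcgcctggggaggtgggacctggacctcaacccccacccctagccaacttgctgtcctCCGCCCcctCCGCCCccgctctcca
Lamb2: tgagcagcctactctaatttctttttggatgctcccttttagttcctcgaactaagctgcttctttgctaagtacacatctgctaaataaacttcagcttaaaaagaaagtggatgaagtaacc
The *Lamb1* window of 191 bases was 63.9% G or C and held 2 GC boxes, both on the minus strand, and 1 CCAAT box. Of all 32851 promoter windows cut to the same length, 23.1% held a GC box and 26.9% a CCAAT box, and their median content of G or C was 51.3%. The *Lamb2* window of 124 bases was 37.9% G or C, against a median of 50.8% in windows of that length. It held neither motif, which 13.3% and 16.7% of windows of its length held. Neither window held a TATA box (TATAAA) on either strand, which 8.78% of windows of the longer and 6.22% of the shorter length held. None of these motifs overlaps another. Both windows end before the starts of the longest annotated transcripts, *Lamb1-201* at 31265293 and *Lamb2-201* at 108479857. The bases directly before those starts were not read, so a motif there would not be seen.

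Total counts were between 20170500 and 23319948 in affected mice and between 11434901, in mouse 14, and 22401136 in unaffected mice. *Tg* held 10.7% to 24.3% of the counts in affected mice and 21.6% to 29.6% in unaffected mice, and its share was lowest in affected mice 6 and 1. The 10 other follicular cell markers, among them *Pax8* and *Nkx2-1*, summed to 928 to 1932 CPM (counts scaled to the library total, on edgeR's TMM scale) in affected mice and to 1324 to 2106 in unaffected mice, again lowest in affected mice 1 and 6. None of the markers of the 13 lists was at 0 in every mouse. The summed CPM of 8 skeletal muscle markers ranged from 23.3 to 30089 in affected mice and from 8.75 to 12828 in unaffected mice. Fibroblast markers (7 genes) summed to 790 to 1269 CPM in affected mice and to 590 to 865 in unaffected mice, and macrophage markers (7 genes) to 152 to 244 and 73.6 to 183. Endothelial markers (9 genes) summed to 770 to 974 CPM and 784 to 1094, parathyroid markers (3 genes) to 29.5 to 4317 and 1807 to 3426, C cell markers (5 genes) to 1398 to 5718 and 2541 to 5411, and markers of airway and other epithelium (5 genes) to 16.2 to 137 and 22.9 to 75.5. Cartilage markers (4 genes) summed to 379 CPM in affected mouse 3 and to at most 8.52 CPM in the others, and T and B cell markers (7 genes) to 71.8 to 87.5 CPM in affected mouse 1 and unaffected mice 14 and 21 and to at most 15.6 CPM in the others. In whole thyroids, fewer cells of a type and less RNA per cell cannot be told apart. Apart from correlations of *Lama1* with the marker lists, the part of these cell types in the results below was not tested.

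Between affected and unaffected mice, *Lamc1* rose and *Lamb1* and *Nid2* fell, while the other 7 genes did not pass the test (edgeR's quasi-likelihood test, Benjamini-Hochberg adjusted p under 0.05). The 3 calls among 10 genes stand beside 13.7% of all 19661 genes tested. By direction, 1 of 10 was higher and 2 of 10 were lower, beside 7.63% and 6.10% of all genes. The median log2 fold change of the 10 genes was 0.0015, and that of all genes tested was 0.0052. The CPM values of the groups did not overlap for *Lamc1* and *Lamb1*, 2 of 10 genes, and for 7.14% of all genes tested. Scaling by library totals without *Tg* moved the median of all genes to -0.13 on the log2 scale and the share of higher genes among the calls from 55.6% to 26.1%. *Lamc1* was still called higher and *Lamb1* lower under that scaling.

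**Figure D1:**
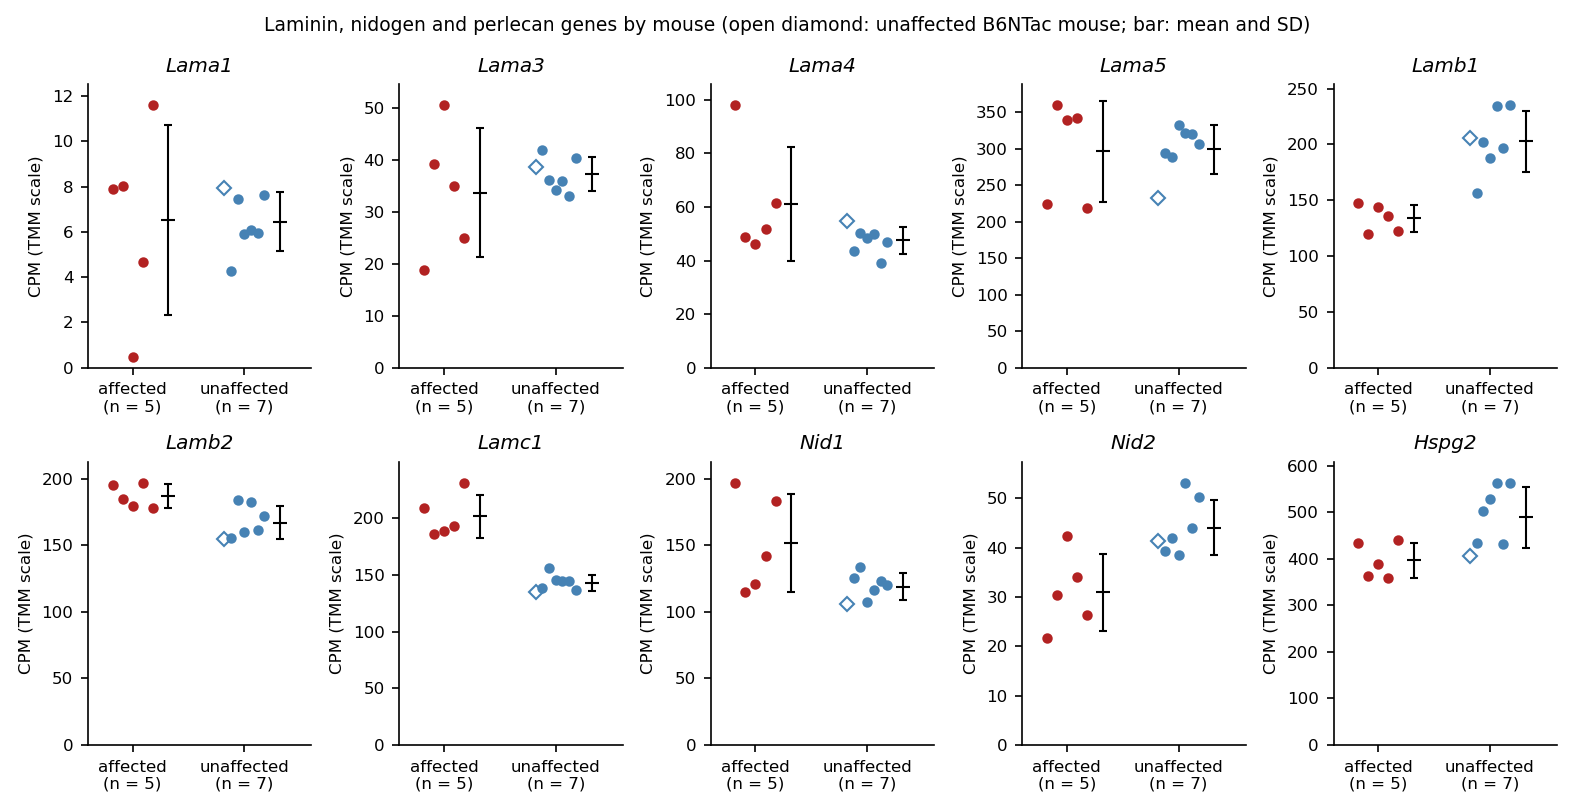
CPM (TMM scale, vertical axes from 0) of the 10 genes in each mouse, with affected mice in red, unaffected mice in blue and unaffected mouse 14 as an open diamond; black bars give the mean and SD of each group. *Lamc1* lies above 185 CPM in all 5 affected mice and below 156 CPM in all 7 unaffected mice, and *Lamb1* lies below 148 CPM in affected and above 156 CPM in unaffected mice.

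*Lamc1* (ENSMUSG00000026478, minus strand of chromosome 1, GRCm38, from 153218922 to 153332786) encodes gamma 1, the chain shared by most laminins. It measured 209, 186, 189, 193 and 231 CPM in affected mice 1, 3, 4, 5 and 6. In the 7 unaffected mice it ranged from 135 to 156 CPM with a median of 145. Every affected mouse was above every unaffected mouse. The mean was 201 ± 18.8 CPM (SD, n = 5) against 143 ± 7.17 CPM (SD, n = 7), and the log2 fold change was 0.50 (SE 0.066, adjusted p = 0.000572 by edgeR's quasi-likelihood test). Mouse 14 had 134.7 CPM, just below the lowest B6NCrl mouse at 136.6 CPM. Leaving out any 1 mouse gave log2 fold changes of 0.45 to 0.54, and the gene was called each time.

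*Lamb1* (ENSMUSG00000002900, plus strand of chromosome 12, from 31265234 to 31329644), which encodes laminin beta 1, moved the other way. It measured 147, 120, 144, 136 and 122 CPM in affected mice 1, 3, 4, 5 and 6. In unaffected mice it ranged from 157 to 235 CPM with a median of 202, so the groups did not overlap, with mouse 21 closest to the affected mice. The mean was 134 ± 12.5 CPM (SD, n = 5) against 203 ± 27.1 CPM (SD, n = 7), a log2 fold change of -0.60 (SE 0.10, adjusted p = 0.00236 by edgeR's quasi-likelihood test). Mouse 14 had 206 CPM, within the range of the B6NCrl mice. Leaving out any 1 mouse gave log2 fold changes of -0.65 to -0.55, with a call each time.

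*Lamb2* (ENSMUSG00000052911, plus strand of chromosome 9, from 108479736 to 108490530) encodes beta 2, which takes the place of beta 1 in other laminin trimers. It measured 195, 185, 179, 197 and 178 CPM in affected mice 1, 3, 4, 5 and 6, and 154 to 184 CPM in unaffected mice with a median of 161. The groups overlapped only through unaffected mice 22 and 24, which lay above affected mice 4 and 6. Its log2 fold change of 0.16 (SE 0.063) did not pass the test (adjusted p = 0.110 by edgeR's quasi-likelihood test). DESeq2 called it, with an adjusted p of 0.041, and over all alternatives the adjusted p lay between 0.041 and 0.876.

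On the FPKM scale, which divides fragments by transcript length as well as by library total and so allows levels of different genes to be compared, the beta chains changed places. The ratio of *Lamb2* to *Lamb1* FPKM was 1.43, 1.75, 1.45, 1.64 and 1.55 in affected mice 1, 3, 4, 5 and 6. In unaffected mice it was 0.813 in mouse 14 and 0.840 to 0.973 in the B6NCrl mice. *Lamb2* was thus the more abundant beta chain in all 5 affected mice, and *Lamb1* in all 7 unaffected mice. As a share of the summed FPKM of the 3 beta chains, *Lamb1* made up 30.2% ± 3.60 (SD, n = 5) in the affected and 42.3% ± 1.95 (SD, n = 7) in the unaffected group. *Lamb2* made up 47.0% ± 3.67 (SD, n = 5) and 38.1% ± 1.69 (SD, n = 7). Neither share overlapped between the groups. The 3 shares are parts of one whole, so a lower share of 1 chain raises the others. The FPKM of *Lamb2* itself overlapped, at 32.5 to 46.2 in affected and 32.5 to 38.7 in unaffected mice. A ratio within a mouse does not depend on the library total, and these ratios are given as a description without a test.

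**Figure D2:**
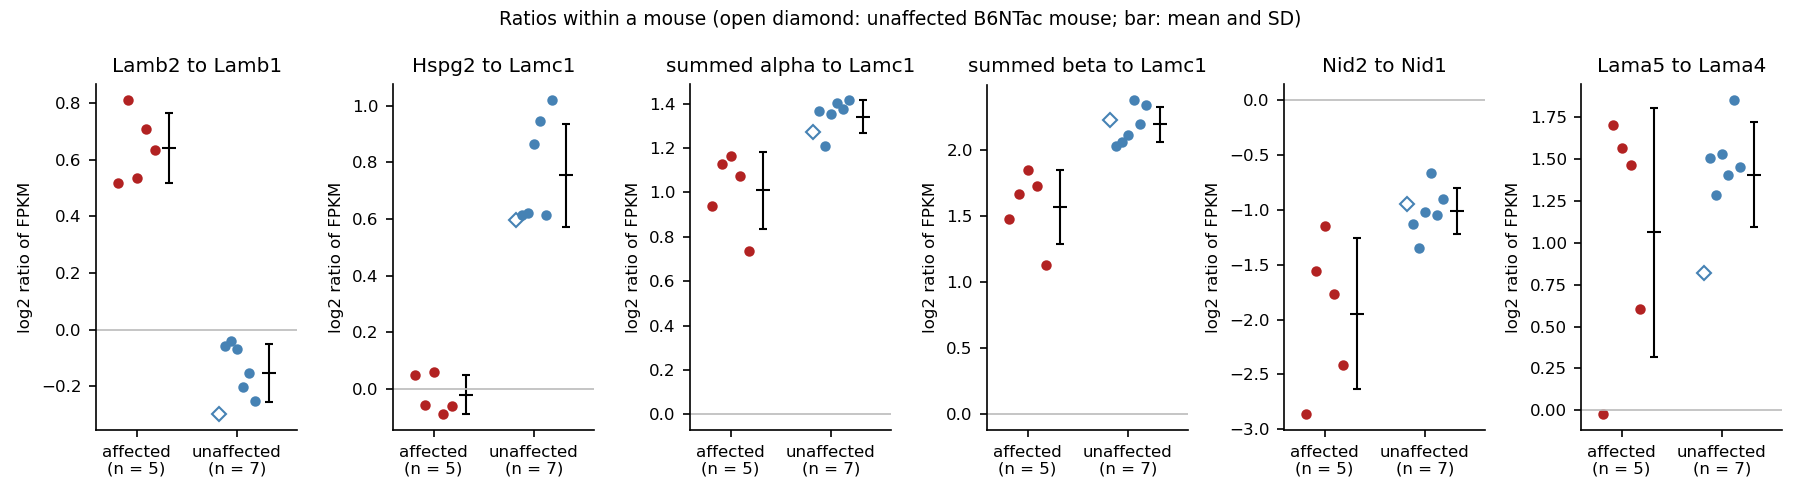
Log2 ratios of FPKM within each mouse (vertical axes, ranges differ by panel; grey line at 0 for equal FPKM), with affected mice in red, unaffected mice in blue, mouse 14 as an open diamond and the mean and SD in black. The groups are apart in the first 4 panels, which hold *Lamb1* or *Lamc1*, and overlap for *Nid2* to *Nid1* and *Lama5* to *Lama4*.

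Relative to *Lamc1* alone, the summed alpha chains and the summed beta chains were lower in affected mice. The sums include *Lama3* and *Lamb3*, chains of laminin-332, and the other gamma chains are left out of the divisor. The summed FPKM of the 5 alpha chains, *Lama2* included, was 1.66 to 2.24 times that of *Lamc1* in affected mice and 2.31 to 2.66 times in unaffected mice. The summed FPKM of the 3 beta chains was 2.19 to 3.59 times that of *Lamc1* in affected mice and 4.08 to 5.19 times in unaffected mice. These ranges did not overlap. The sums themselves did, at 48.9 to 62.9 FPKM in affected and 48.3 to 54.6 FPKM in unaffected mice for the alpha chains, and at 64.4 to 91.5 and 86.4 to 104 FPKM for the beta chains. In 4 of the 8 ratios computed the groups did not overlap, and each of these 4 holds *Lamb1* or *Lamc1*, the 2 genes whose CPM values did not overlap.

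Among the alpha chains, none of *Lama1*, *Lama3*, *Lama4* and *Lama5* passed the test, and each varied more among affected than among unaffected mice. *Lama5* (ENSMUSG00000015647, minus strand of chromosome 2, from 180176373 to 180225859) encodes alpha 5, the main alpha chain of mature epithelial and vascular basement membranes. It measured 224, 359, 339, 342 and 218 CPM in affected mice 1, 3, 4, 5 and 6, against 288 to 332 CPM in the B6NCrl mice and 232 CPM in mouse 14. Affected mice 3, 4 and 5 were thus above all unaffected mice, while affected mice 1 and 6 were below all of them. The group means were close, at 297 ± 69.1 CPM (SD, n = 5) and 299 ± 33.3 CPM (SD, n = 7), and the log2 fold change was -0.01 (SE 0.14, adjusted p = 0.966 by edgeR's quasi-likelihood test). Its sign turned in 5 of the 12 fits that left out a mouse, among them 0.07 without affected mouse 1 and 0.09 without affected mouse 6.

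*Lama3* (ENSMUSG00000024421, plus strand of chromosome 18, from 12333819 to 12583013), the alpha chain of laminin-332, followed a like order. It measured 18.9, 39.2, 50.4, 34.9 and 24.9 CPM in affected mice 1, 3, 4, 5 and 6, and 33.0 to 41.9 CPM in unaffected mice with a median of 36.1. Affected mice 1 and 6 were below every unaffected mouse and affected mouse 4 above every one. Its log2 fold change was -0.14 (SE 0.19, adjusted p = 0.675 by edgeR's quasi-likelihood test). It was 0.0032 without affected mouse 1.

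*Lamb3*, the beta chain of laminin-332, showed this spread as well. It measured 47.7 and 50.3 CPM in affected mice 1 and 6 and 93.5 to 114 CPM in affected mice 3, 4 and 5, with unaffected mice at 65.8 to 87.0 CPM. Affected mice 3, 4 and 5 lay above and mice 1 and 6 below all unaffected mice. The gene did not pass the test, with a log2 fold change of 0.10 (SE 0.20). Affected mice 1 and 6 are also those with the lowest share of *Tg* and the lowest sum of follicular cell markers, and the part of this in the spread was not tested.

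*Lama4* (ENSMUSG00000019846, plus strand of chromosome 10, from 38965515 to 39110188) encodes alpha 4, a chain of vessels, muscle, fat and nerve. It measured 97.8, 48.7, 46.3, 51.9 and 61.3 CPM in affected mice 1, 3, 4, 5 and 6, and 39.3 to 54.7 CPM in unaffected mice with a median of 48.5. The highest value was that of affected mouse 1. This mouse also had the highest sums of adipocyte markers (1585 CPM, against 166 to 633 in the other affected and 176 to 411 in unaffected mice), of Schwann cell markers (392 CPM, against 143 to 161 and 91.8 to 164) and of mural cell markers (1229 CPM, against 476 to 586 and 433 to 793). Their part in the level of *Lama4* was not tested. For the groups, a log2 fold change of 0.36 (SE 0.17, adjusted p = 0.171 by edgeR's quasi-likelihood test) was found, and 0.13 without affected mouse 1.

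*Lama1* (ENSMUSG00000032796, plus strand of chromosome 17, from 67697259 to 67822647), which encodes an alpha chain best known from the early embryo, was the least abundant of the 10 genes in both groups. It measured 7.88, 8.03, 0.465, 4.67 and 11.6 CPM in affected mice 1, 3, 4, 5 and 6, and 4.26 to 7.93 CPM in unaffected mice with a median of 6.09. The affected mice held both the lowest and the highest value. Its log2 fold change was 0.02 (SE 0.48, adjusted p = 0.988 by edgeR's quasi-likelihood test), and its sign turned in 11 of 23 alternatives.

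The level of *Lama1* across mice ran with that of *Pth*, the hormone gene of the parathyroid gland, which lies beside the thyroid. *Pth* measured 0.723 CPM in affected mouse 4, where *Lama1* was lowest, and 3934 CPM in affected mouse 6, where *Lama1* was highest. In the other 10 mice *Pth* lay between 1656 and 3136 CPM. Against the summed CPM of the 3 parathyroid markers, Pearson's r for *Lama1* was 0.979 and Spearman's rho 0.951 over the 12 mice (permutation test with 100000 resamples, p = 1e-05 for each, the smallest it can give). Adjusted over the 13 marker lists compared, these were 6e-05 and 0.00013. Without affected mice 4 and 6, the 2 farthest from the median of *Lama1*, r was 0.945, and within the 7 unaffected mice it was 0.908. This relation was examined after the values had been seen. The C cell list gave r = 0.928 (adjusted p = 6e-05 in the same permutation test), and no test separated it from the parathyroid list. In affected mouse 4, *Calca*, the calcitonin gene of C cells, was at 994 CPM. *Chga*, a C cell list gene that parathyroid cells also express, was at 16.9 CPM there, against at least 1818 CPM in the other mice. *Chga* made up 5121 of the 5718 CPM of the C cell list in affected mouse 6, where *Calca* was at 461 CPM. In unaffected mouse 21 it made up 1818 of 2541 CPM. The relation of each gene alone to *Lama1* was not tested. The other 11 lists gave adjusted p-values of 0.355 or more for r.

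**Figure D3:**
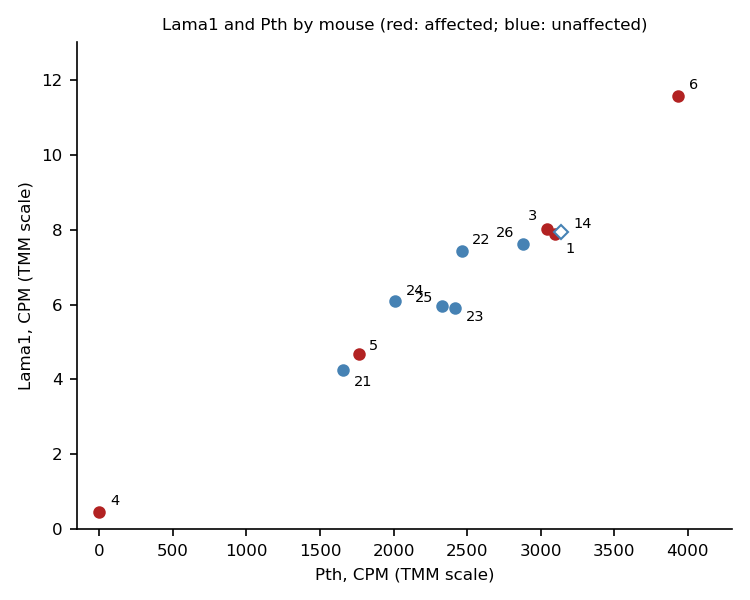
*Lama1* (vertical axis, CPM) against *Pth* (horizontal axis, CPM) in each of the 12 mice, numbered, with affected mice in red, unaffected mice in blue and mouse 14 as an open diamond. Affected mouse 4 lies near 0 on both axes at 0.465 and 0.723 CPM, and affected mouse 6 is highest on both.

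As a share of alpha chain FPKM, *Lama5* was the largest in every mouse except affected mouse 1. It held 34.6% and 35.3% in affected mice 1 and 6, 50.2% to 53.8% in the other affected mice, and 44.3% to 54.6% in unaffected mice. *Lama4* held 35.2% in affected mouse 1, where it was slightly above *Lama5*, and 14.9% to 25.0% in the 11 others. *Lama2*, the alpha chain of muscle and nerve, held 34.4% in affected mouse 6, which had the highest skeletal muscle sum (30089 CPM), and 18.1% to 25.6% in the others. The part of muscle in the share of *Lama2* was not tested. *Lama3* held 3.12% to 10.3% and *Lama1* 0.0824% to 2.35%. For each of the 5 chains the shares of the 2 groups overlapped.

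**Figure D4:**
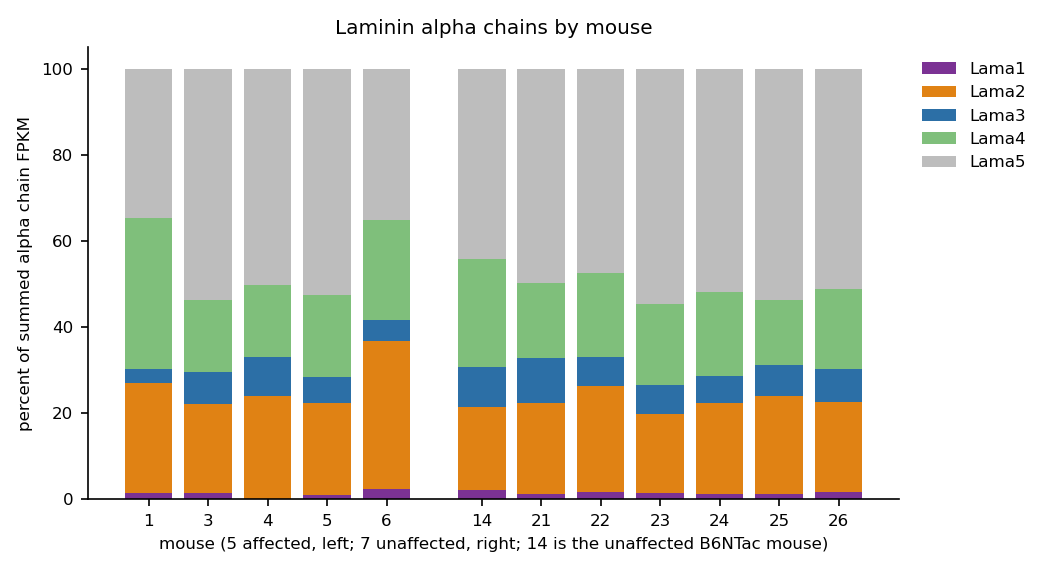
Share of each laminin alpha chain in the summed alpha chain FPKM (vertical axis, percent) in each mouse, with 5 affected mice on the left and 7 unaffected mice on the right. *Lama5* is the largest share in 11 of the 12 mice and falls to 34.6% in affected mouse 1 and 35.3% in affected mouse 6.

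The nidogens did not move together. *Nid2* (ENSMUSG00000021806, plus strand of chromosome 14, from 19751265 to 19811787) measured 21.7, 30.5, 42.3, 34.0 and 26.4 CPM in affected mice 1, 3, 4, 5 and 6. In unaffected mice it ranged from 38.5 to 53.2 CPM with a median of 41.9, so that only affected mouse 4 lay within their range. It fell by 0.51 on the log2 scale (SE 0.15, adjusted p = 0.0372 by edgeR's quasi-likelihood test), from 44.1 ± 5.59 CPM (SD, n = 7) to 31.0 ± 7.80 CPM (SD, n = 5). This call was close to the threshold: it was lost in 11 of 24 alternatives, whose adjusted p-values spanned 0.00745 to 0.0785, with a lower level in affected mice each time. Exons of *Rtraf* on the other strand overlap 8.45% of its exon bases, and the sources used here do not give whether reads were assigned by strand. *Rtraf* itself had a log2 fold change of 0.17 (SE 0.069, adjusted p = 0.131 by edgeR's quasi-likelihood test).

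*Nid1* (ENSMUSG00000005397, plus strand of chromosome 13, from 13437551 to 13512269), the more abundant nidogen, measured 197, 115, 121, 142 and 183 CPM in affected mice 1, 3, 4, 5 and 6. It ranged from 106 to 134 CPM in unaffected mice with a median of 120. Affected mice 1, 5 and 6 were above all unaffected mice, and mice 3 and 4 within their range. Its log2 fold change of 0.35 (SE 0.13) did not pass the test (adjusted p = 0.0939 by edgeR's quasi-likelihood test), but it did without affected mouse 3 (adjusted p = 0.0459) or affected mouse 4 (adjusted p = 0.041). The 2 affected mice highest in *Nid1*, 1 and 6, were the 2 lowest in *Nid2*, and they also had the highest fibroblast sums, 1269 and 1201 CPM. The part of fibroblasts was not tested. The ratio of *Nid2* to *Nid1* FPKM was 0.137 and 0.188 in these 2 mice, 0.294 to 0.452 in the other 3 affected mice, and 0.392 to 0.630 in unaffected mice. It overlapped between the groups only through affected mouse 4.

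*Hspg2* (ENSMUSG00000028763, plus strand of chromosome 4, from 137468769 to 137570630) measured 434, 363, 388, 359 and 440 CPM in affected mice 1, 3, 4, 5 and 6, and 405 to 564 CPM in unaffected mice with a median of 503. Mouse 14 had the lowest unaffected value, and affected mice 1 and 6 lay above it and above B6NCrl mouse 25 (431 CPM). Affected mouse 6 also lay above B6NCrl mouse 21 (434 CPM). The log2 fold change was -0.30 (SE 0.10), short of the threshold (adjusted p = 0.0688 by edgeR's quasi-likelihood test). It was called in 5 of 24 alternatives, among them DESeq2 (adjusted p = 0.0399) and the fit with B6NCrl controls alone (adjusted p = 0.0458). Relative to *Lamc1*, its FPKM was 0.940 to 1.04 times as high in affected mice and 1.51 to 2.03 times in unaffected mice, without overlap.

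**Figure D5:**
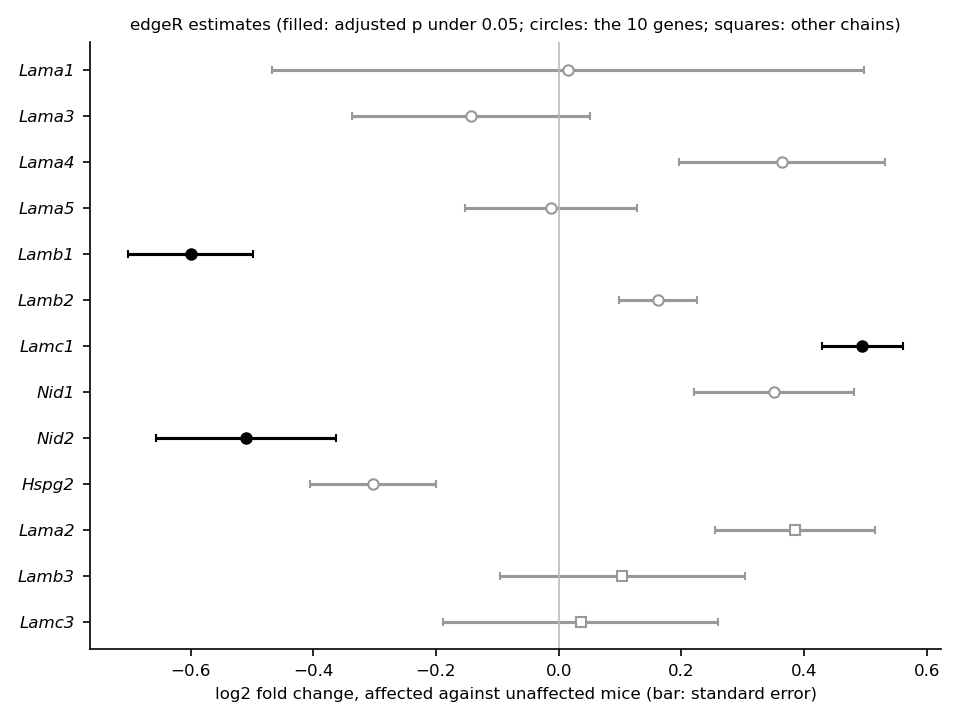
Log2 fold change of affected against unaffected mice (horizontal axis) with its standard error for the 10 genes (circles) and the other laminin chains *Lama2*, *Lamb3* and *Lamc3* (squares), filled where the adjusted p is under 0.05. *Lamc1* lies at 0.50, *Lamb1* at -0.60 and *Nid2* at -0.51, and the other 10 genes are open.

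Ordered by mean FPKM, the genes ranked differently in the 2 groups at the top. In unaffected mice the order was *Lamb1* (39.8 ± 4.20, SD, n = 7), *Lamb2* (35.7 ± 2.55), *Hspg2* (34.8 ± 4.16), *Lama5* (26.3 ± 2.50), *Lamc1* (20.5 ± 0.939) and *Nid1* (19.9 ± 1.67). Of these neighbours, *Lamb2* was above *Hspg2* in 5 of 7 mice and *Lamc1* above *Nid1* in 4 of 7, so neither pair was set apart by its spread, while the other neighbours kept their order in all 7 mice. In affected mice *Lamb2* (39.7 ± 5.06 FPKM, SD, n = 5) was above *Lamc1* in all 5 mice. *Lamc1* (28.5 ± 2.87), *Hspg2* (28.1 ± 3.40), *Lama5* (26.0 ± 6.34), *Lamb1* (25.6 ± 4.24) and *Nid1* (25.2 ± 6.94) followed within their spread, each above the next in 2 or 3 of the 5 mice. In both groups *Lama4*, *Nid2*, *Lama3* and *Lama1* came last, in that order, although *Lama4* was above *Nid2* in only 3 of 7 unaffected mice against 5 of 5 affected mice.

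The deposited counts and FPKM values together give the transcript length behind each FPKM value. It was checked on the 3690 genes that have a single transcript in the annotation and no mouse under 10 counts, and all matched their annotated length with a relative tolerance of 0.001. Of the 10 genes, 9 had 100 counts or more in each mouse, and none of them differed in length between the groups at an adjusted p under 0.05 (exact two-sided permutation test, adjusted over 9084 genes, smallest possible unadjusted p = 0.00126). The share of all genes called was 0.00%, and 1152 genes, *Nid2* alone among the 9, had an unadjusted p under 0.05. *Nid2* had an implied length of 4730 ± 93.3 bp (SD, n = 5) in affected and 4453 ± 231 bp (SD, n = 7) in unaffected mice (permutation test, unadjusted p = 0.0328, adjusted p = 0.334). For *Lamb1* it was 5235 ± 127 bp (SD, n = 5) and 5082 ± 138 bp (SD, n = 7), with an adjusted p of 0.458 in the same exact permutation test. *Lama5* and *Hspg2* hardly varied, with ranges of 11294 to 11388 bp and 13852 to 14181 bp over all 12 mice.

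*Lama3* has 2 annotated transcripts, *Lama3-201* of 10548 nt in 75 exons and *Lama3-202* of 5551 nt in 38 exons, which starts at 12504199, inside the longer one. Its implied length was 10548 bp in affected mouse 1, the length of *Lama3-201*, and 8850 to 9746 bp in the other affected mice. In unaffected mice it ranged from 7838 bp in mouse 21 to 10390 bp in mouse 24. If the FPKM of a gene is the sum over its transcripts, the long transcript made up 81.8% ± 12.2 (SD, n = 5) of the *Lama3* molecules in affected and 75.6% ± 17.9 (SD, n = 7) in unaffected mice. The groups overlapped, and the length gave an adjusted p of 0.84 (exact permutation test).

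Of *Lama2*, *Lamb3* and *Lamc3*, other chains of the family, none was called. *Lama2* had a log2 fold change of 0.38 (SE 0.13, adjusted p = 0.0703 by edgeR's quasi-likelihood test), and *Lamc3*, a low chain of vessels and nervous tissue, one of 0.04 (SE 0.22, adjusted p = 0.939). *Lama2* was called in 5 of 24 alternatives.

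Of 12 genes that encode laminin receptors or their partners, 4 were called, all higher in affected mice. Of all genes tested, 13.7% were called and 7.63% were called higher. *Itga3*, the integrin alpha chain that binds laminins with alpha 3 or alpha 5, had a log2 fold change of 0.70 (SE 0.20, adjusted p = 0.0347). *Itgb4*, the hemidesmosomal beta chain that pairs with integrin alpha 6, had one of 0.40 (SE 0.11, adjusted p = 0.0277). *Cd151*, a tetraspanin that binds these integrins, had one of 0.30 (SE 0.087, adjusted p = 0.0389), and *Itgb1*, the common beta chain, one of 0.28 (SE 0.074, adjusted p = 0.0257). *Itgb1* did not overlap between the groups, at 352 to 454 CPM against 295 to 339 CPM. The same was so for 7.14% of all genes tested. The median of the list was 0.32. None of the 4 was called with library totals without *Tg*, where their adjusted p-values were between 0.105 and 0.369, nor without affected mouse 3. Over the 24 alternatives the call was lost in 15 for *Itga3*, in 13 each for *Itgb4* and *Cd151* and in 5 for *Itgb1*, with a higher level in affected mice each time.

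Of 18 other basement membrane proteins, 8 were called, 2 higher and 6 lower. Beside these stand 13.7% of all genes tested, 7.63% higher and 6.10% lower. The largest falls were those of *Col4a3* and *Col4a4*, which encode the alpha 3 and alpha 4 chains of a specialised type IV collagen. *Col4a3* measured 41.7 to 83.5 CPM in the affected and 121 to 151 CPM in the unaffected mice, and its log2 fold change was -1.23 (SE 0.15, adjusted p = 0.000285). *Col4a4* measured 92.4 to 177 CPM and 216 to 281 CPM, a log2 fold change of -1.02 (SE 0.15, adjusted p = 0.00101). Both were called in all 24 alternatives. *Col4a5* and *Col4a6* were also lower, by log2 fold changes of -0.40 and -0.39, whereas *Col4a1* and *Col4a2*, the chains of the common type IV collagen, did not pass the test (log2 fold changes of 0.24 and 0.07). *Tinagl1*, a matricellular protein that binds laminin, rose by 0.66 on the log2 scale (SE 0.17, adjusted p = 0.0235), and *Col15a1*, a collagen of the outer basement membrane, fell by 0.46 (SE 0.13, adjusted p = 0.0333). *Tinagl1* lost its call in 4 of 24 alternatives (adjusted p up to 0.0807) and *Col15a1* in 9 (up to 0.109), each in the same direction. The median of the list was -0.04. The p-values of this and the preceding paragraph are from edgeR's quasi-likelihood test.

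Of 12 proteases and inhibitors that act on the basement membrane, 11 passed the filter on low counts and 1 was called. This was *Adamts1*, a secreted metalloprotease, with 12.7 to 32.8 CPM in affected and 8.31 to 17.0 CPM in unaffected mice and a log2 fold change of 0.85 (SE 0.26, adjusted p = 0.0458 by edgeR's quasi-likelihood test). It lost its call in 18 of 24 alternatives. The 1 call among these 11 genes stands beside 13.7% of all genes tested that were called, and 7.63% that were called higher. *Plg*, the gene of plasminogen, did not pass the filter. The median of the list was 0.16.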

How the data were processed

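Thyroid RNA of 12 mice was sequenced, 1 library per mouse. Per the methods, ribosomal RNA was depleted, and the authors used OmicSoft Array Studio for alignment (OSA4) and gene quantitation, with Mouse.B39 and Ensembl R96 as reference. They deposited estimated counts per gene, which are not normalized, and FPKM values. No test for expression was named. The gene coordinates used here have the same values in GENCODE M21 (GRCm38).

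Estimated counts were rounded to whole numbers, filtered with edgeR's filterByExpr (minimum count 10, 19661 genes left), scaled by TMM and tested with edgeR 4.0.16's robust quasi-likelihood test under R 4.3.3, with phenotype as the only term. Adjusted p-values are Benjamini-Hochberg values over all genes tested, and the threshold was 0.05. The SE of a log2 fold change is its size divided by the square root of F. CPM values are on the TMM scale. The implied transcript length of a gene is the ratio of its count to the product of its FPKM value and the total count, compared by an exact permutation test over all 792 splits. Ratios and shares of FPKM, in which the length correction is that of the authors, were described without a test. Intervals and tests cover the spread between mice. The tests were checked on simulated data.

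The genes and lists were chosen with earlier results of these data known. Genes named are the 10 genes, other laminin chains, at most 4 genes with the largest change among those called in each of 3 basement membrane lists, *Tg*, and the marker lists. *Col4a1*, *Col4a2*, *Col4a5*, *Col4a6*, *Rtraf*, *Pth*, *Calca* and *Chga* were named after their values were seen. Alternatives were DESeq2 1.42.0, library totals with or without *Tg*, upper-quartile factors, no filter, at least 10 counts in every mouse, B6NCrl controls alone, limma 3.58.1 on log2 FPKM (pseudocount 1 or 0.1, genes with mean FPKM from 0.5 up; pseudocount 1 also on all genes), a fit with *Xist* as covariate, an exact permutation test on log2 CPM (prior count 2), and each mouse left out. Fold changes on the log2(FPKM + pseudocount) scale understate changes of low genes. The correlations of *Lama1* with 13 marker lists were added after the data were seen. Read sequences and protein sequences were not used here, and some genes of the lists are not reported here.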

Additional observations from a re-analysis of the deposited data

How the results depend on the processing

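*Lamc1* and *Lamb1* kept their direction and their call in all 24 alternatives, with log2 fold changes between 0.35 and 0.54 and between -0.74 and -0.55. Of the 10 genes, 3 were called, against 5 with DESeq2 and 2 to 4 with each mouse left out. DESeq2 called 3597 of the 19661 genes tested. In all, 2699 genes were called, against 1339 with limma on log2(FPKM + 1) without a filter and 1774 to 3390 with each mouse left out; the lowest count was without affected replicate 5. Of the 46 genes in the 4 other lists, 13 were called, beside 13.7% of all genes tested. The count was 6 with library totals without *Tg*, where 2313 of 19651 genes tested were called in all. It was 8 without the filter (1941 of 36502 genes) and 8 with B6NCrl controls alone (2161 of 19494). With limma on log2(FPKM + 1) without a filter it was 4 (1339 of 36954). The permutation test on log2 CPM gave 7 (2496 of 19661). Leaving out each mouse gave 4 to 15, lowest without affected replicate 3 (1874 of 19867) and highest without affected replicate 4 (3390 of 19958). The cause was not tested.

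None of the direction changes concerned a called gene. The log2 fold change of *Lama1* turned to -0.16 with library totals without *Tg*, -0.04 with upper-quartile factors, -0.091 with limma on log2(FPKM + 1) with or without the filter, -0.40 with limma on log2(FPKM + 0.1) and -0.49 with the permutation test on log2 CPM. *Lamb3* turned to -0.011 and *Lamc3* to -0.093 with library totals without *Tg*, and *Lamc3* to -0.011 with upper-quartile factors and -0.014 with B6NCrl controls alone. With each mouse left out, *Lama1* ranged from -0.28 to 0.34, *Lama3* from -0.32 to 0.0032, *Lama5* from -0.090 to 0.087, *Lamb3* from -0.041 to 0.24 and *Lamc3* from -0.095 to 0.13. *Lama1* gave no value under the filter of at least 10 counts in every mouse. The ratios and alpha chain shares moved by less than 1 SD in each alternative run, but the difference in the share of *Lama4* turned to -0.22 percentage points without affected replicate 1, and that in the log2 ratio of *Lama1* to *Lama5* to 0.24 without affected replicate 4. The fit with B6NCrl controls alone is that without mouse 14, and both are among the 24. The depth of mouse 14 (11434901 counts) is the lowest. No paired analysis was possible because the groups share no replicate numbers.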
